A study of Mus musculus with 20 samples.

Results

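The clustered protocadherins are neighbouring genes on mouse chromosome 18 that encode cell-surface adhesion proteins. Members were chosen by symbol: every gene of the deposited count table whose Ensembl identifier carries a symbol starting Pcdha, Pcdhb, Pcdhga, Pcdhgb or Pcdhgc followed by a number. This gave 56 genes of 51826, with 12 Pcdha, 22 Pcdhb, 12 Pcdhga, 7 Pcdhgb and 3 Pcdhgc genes. The symbol Pcdha11 belongs to 2 identifiers, so the 56 genes have 55 symbols, and Pcdhgb8 is annotated as a polymorphic pseudogene. On the plus strand of the mm10 build they run from position 36930184 to 37841873. The group was proposed with results of these data known, so its levels are given as a description.

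Clustered protocadherins belong to the cadherin superfamily and bind the same isoform on a facing cell. In the alpha and gamma clusters each variable exon has its own promoter and is spliced to constant exons that the whole cluster shares, and these encode a common cytoplasmic tail. The beta genes are single-exon genes without such a tail. In neurons, each cell uses a small choice of promoters, a choice that depends on DNA methylation and on looping by CTCF and cohesin, and the resulting combination lets a neuron recognise its own branches.

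RNA was sequenced from 6 primary mouse sarcomas and 14 lung metastases that the titles tie to a numbered primary. Each primary tumour and the metastases tied to it form a matched set; sets 1 and 2 hold 4 metastases each, sets 3 and 6 hold 2 each, and sets 4 and 5 hold 1 each. Names such as metastasis 2-3 give the set and then the number within it, and 5-x stands for the metastasis of set 5, which has no number. The animals of both groups had a mixed background, and the labels name no allele, agent, sex, tumour site or age and do not say whether metastases of a set share an animal. The p-values thus rest on the spread among these tissue samples, part of which may be technical. Lung metastases are dissected tissue that can hold lung cells.

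Total counts ran from 20603620 to 36824370 per library. Levels are counts scaled to CPM (library-size-normalised counts) after TMM scaling of library sizes, and differences are log2 fold changes of metastases over primary tumours. Xist, the X-inactivation RNA, is made in female cells. The library labelled Primary 4 had 6070 CPM of Xist and at most 0.481 CPM of the Y-linked genes Ddx3y, Eif2s3y, Kdm5d and Uty. Metastasis 4-1, matched to it by title, had 1.51 CPM of Xist and 189 CPM of Ddx3y. These RNAs differ as between female and male tissue, so the pairing of set 4 is in doubt. Where a metastasis is set against its own primary tumour below, the pairing is that of the titles. Primary 6 had 1 count of Kdm5d beside 112 CPM of Ddx3y, and metastases 6-1 and 6-2 had 7.89 and 6.67 CPM of Kdm5d. These libraries also stood apart in marker genes of other cells: the 14 leucocyte markers summed to 7.22 CPM in Primary 4 and 29.9 CPM in Primary 6, against 2370 to 4050 CPM in the other primary tumours. The count of members that rose, the members called and the sign counts are therefore given with and without sets 4 and 6. Metastases 3-2 and 2-1 also held Xist, at 296 and 80.3 CPM beside 42.2 and 62.0 CPM of Ddx3y, against 0.0544 and 0.121 CPM of Xist in Primary 3 and Primary 2. In bulk tissue, fewer cells of a type and less RNA per cell cannot be told apart.

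The clusters differed in level. All 12 alpha genes together had 237 counts over the 20 libraries, at most 12 counts in any gene and library, and none passed the filter on low counts. Pcdhac2, an alpha C gene outside the naming rule that shares the constant exons, had 181 counts in metastasis 1-1 and 1 to 45 counts in the other 19 libraries. Reads in the shared exons were therefore not added to every alpha gene. Of the beta genes 21 of 22 passed the filter, with Pcdhb1 left out, and all 22 gamma genes passed, which left 43 members in the tests. How reads in shared or antisense exons were assigned is not given in the sources used here, and 36 of the 56 members share exons with another gene on their strand.

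Compared per kilobase of exon that no other gene on the strand covers, Pcdhgc3 was the highest member at 43.6 CPM per kb averaged over the libraries. It encodes a C-type gamma isoform. Its level ran from 21.9 through a median of 123 to 176 CPM in the primary tumours, and from 29.98 through 161 to 335 CPM in the metastases. The ranges overlapped, with the low ends at Primary 4 and metastasis 4-1, and the log2 fold change was 0.41 ± 0.259 (edgeR adjusted p 0.322), or 0.17 without sets 4 and 6 (0.779). It held the most gamma counts in 20 of 20 libraries, from 20.5% of them in metastasis 4-1 (exact binomial 95% interval 19.4 to 21.6, counting error only) to 65.9% in metastasis 2-3 (65.1 to 66.7). The next members per kilobase were Pcdhgb6 at 5.29, Pcdhga10 at 5.06 and Pcdhga3 at 4.27 CPM per kb; the exons of Pcdhga10 are covered by antisense exons. The highest beta gene was Pcdhb17 at 4.19 CPM per kb, followed by Pcdhb16 at 3.65 and Pcdhb22 at 3.37, while the 12 alpha genes lay between 0.00234 and 0.0304 CPM per kb.

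**Figure D1:**
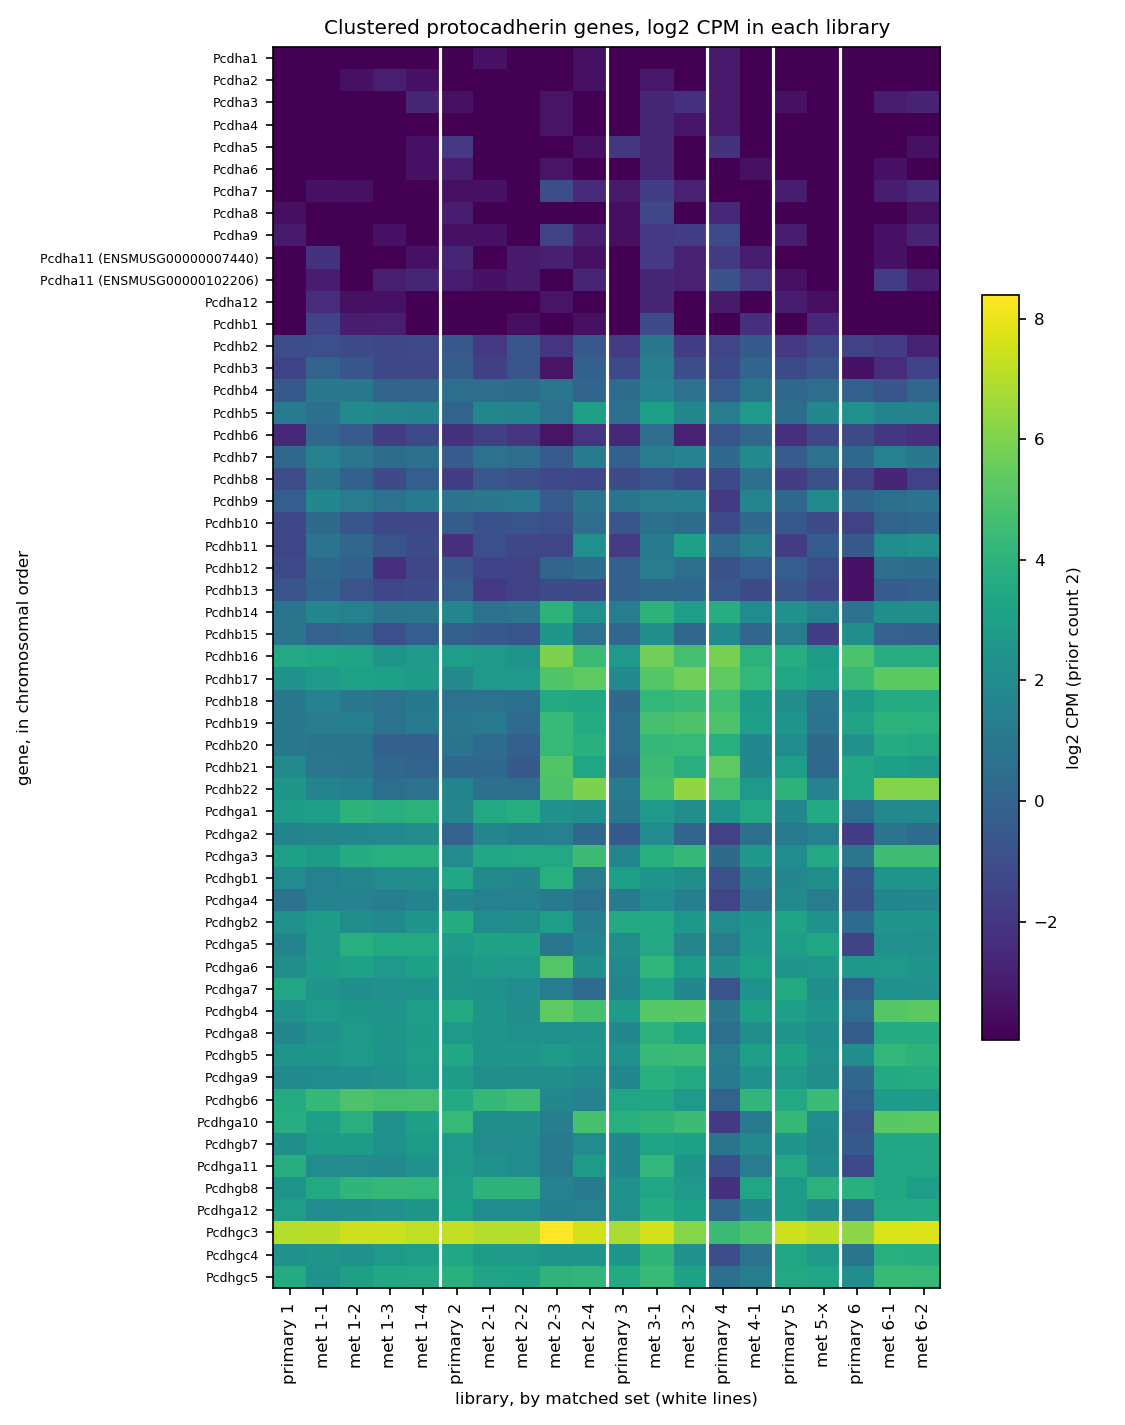
Level of each of the 56 members (down, in chromosomal order) in each of the 20 libraries (across, by matched set, "met" for lung metastasis), as log2 CPM with a prior count of 2. The alpha genes are near 0 counts throughout, Pcdhgc3 is bright in every library, and most of Pcdhb16 to Pcdhb22 are high in metastases 2-3, 2-4, 3-1, 3-2, 6-1 and 6-2 and in Primary 4.

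Summed over each group of genes, primary tumours and metastases overlapped. The 22 Pcdhb genes summed to between 29.5 and 259 CPM in the primary tumours, with a median of 59.7, and to between 30.5 and 279 CPM in the metastases, with a median of 70.5. The 12 Pcdhga genes summed to 15.3 to 87.6 CPM (median 63.4) and to 57 to 145 CPM (median 82.8) in turn. The 7 Pcdhgb genes summed to 11.4 to 72.0 CPM (median 45.3) and to 46.99 to 104 CPM (median 72.2). The low ends of both gamma groups among the primary tumours were Primary 4 and Primary 6: the other 4 primary tumours had 48.2 to 87.6 CPM of Pcdhga and 41.5 to 72.0 CPM of Pcdhgb. In the same 2 libraries the beta sum was high, 259 and 108 CPM.

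**Figure D2:**
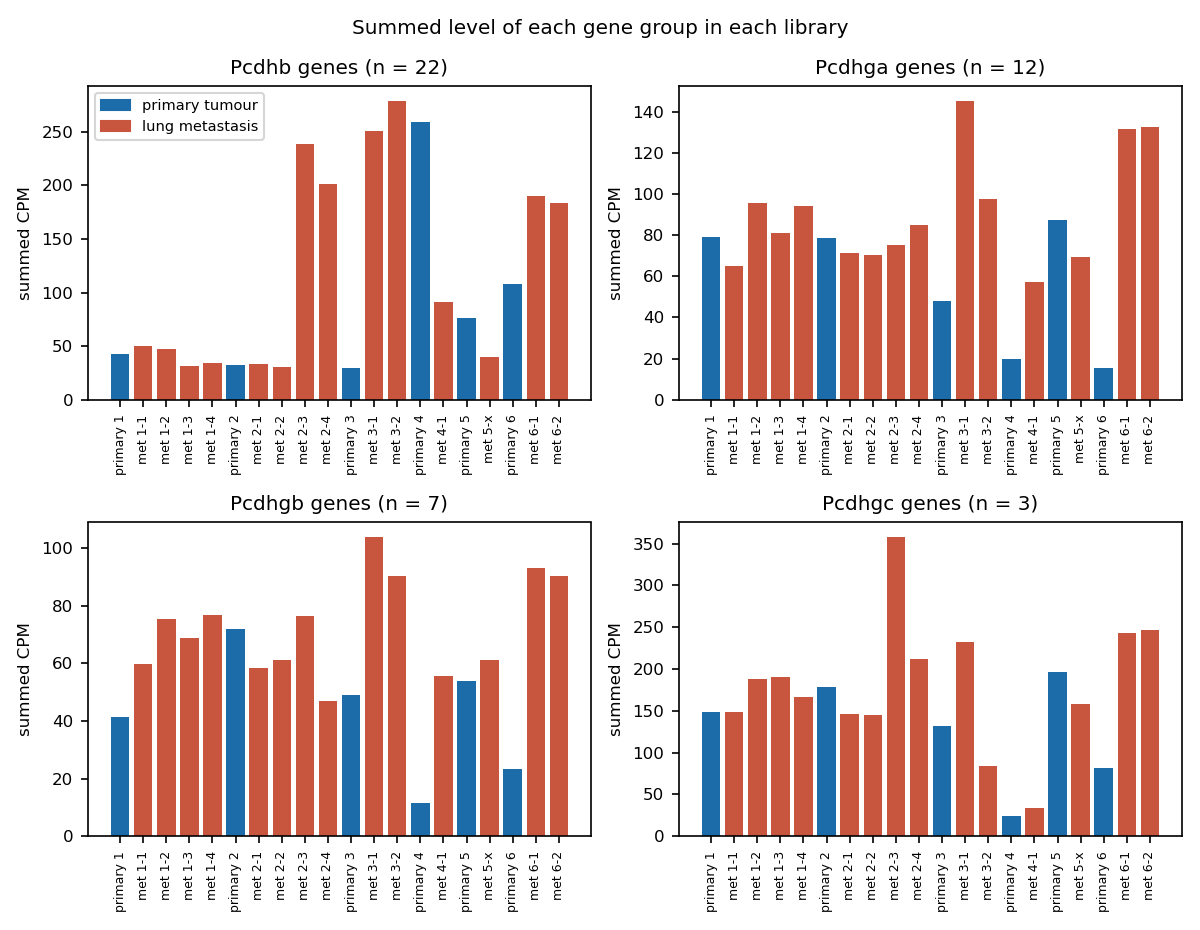
Summed CPM of the Pcdhb, Pcdhga, Pcdhgb and Pcdhgc genes in each library, blue for primary tumours and red for lung metastases ("met"). Primary 4 has 259 CPM of Pcdhb beside 19.7 CPM of Pcdhga, and metastases 2-3, 2-4, 3-1, 3-2, 6-1 and 6-2 have the high Pcdhb sums among metastases.

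Metastases were compared with primary tumours to see which members differ at the metastatic site. Of the 43 members tested, 5 rose in metastases and 0 fell (edgeR quasi-likelihood test with the matched set as a block, Benjamini-Hochberg adjusted p under 0.05); 3 were Pcdhga genes (Pcdhga1, Pcdhga2, Pcdhga3) and 2 were Pcdhb genes (Pcdhb7, Pcdhb11), with 0 of the 7 Pcdhgb and 0 of the 3 Pcdhgc genes. Among all 18452 genes tested, 7.34% were higher and 6.44% lower, so the share of 11.6% of members that rose is of the order of the share over all genes. At an unadjusted p under 0.05 there were 9 members, all higher, and DESeq2 called 6 higher and 0 lower, the 5 and Pcdhb9. Of all 18452 genes, DESeq2 called 2310 higher and 1861 lower. The fold change was positive for 38 of 43 members with a median of 0.57 on the log2 scale, against 9223 of all 18452 genes and a median of -0.0003. Without sets 4 and 6 it was positive for 32 and negative for 11, with a median of 0.42, and 2 members were called higher and 0 lower. In that fit 785 of 18804 genes were called higher and 1065 lower. Primary 4 was the lowest library for 12 of the 43 members and Primary 6 for 14. The ranges of primary tumours and metastases overlapped for every member tested. Shares over all genes are not given here for overlap or for the unadjusted p.

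Pcdhga3 changed most clearly. Its level was 8.07, 3.90, 3.21, 1.18, 4.12 and 1.78 CPM in primary tumours 1 to 6 in order, and ran from 6.14 through a median of 13.2 to 23.5 CPM in the metastases. All but 1 of 14 metastases exceeded their own primary tumour, the exception being metastasis 1-1 at 6.86 CPM. The log2 fold change was 1.85 ± 0.358 (SE, 6 primary tumours and 14 metastases), with an edgeR adjusted p of 0.00462.

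Pcdhga1, the gene at the 5′ end of the gamma cluster, had 7.08, 3.08, 1.90, 5.40, 3.44 and 1.41 CPM in primary tumours 1 to 6 in order. Its metastases ran from 3.53 through 9.45 to 16.2 CPM, and each of the 14 lay above its own primary tumour. The log2 fold change was 1.32 ± 0.278 with an edgeR adjusted p of 0.00674. Without sets 4 and 6 the fold changes of Pcdhga3 and Pcdhga1 were 1.43 and 1.35, with edgeR adjusted p of 0.0267 and 0.0304.

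The other 3 risers were low genes with calls that other settings ended. Pcdhga2 had 0.235 to 3.02 CPM in primary tumours (median 0.764) and 0.980 to 4.28 CPM in metastases (median 2.67), with a log2 fold change of 1.33 ± 0.403 and an edgeR adjusted p of 0.038. Pcdhb7, a beta gene, had 0.677 to 1.12 CPM (median 0.942) and 0.675 to 3.71 CPM (median 1.86), with a fold change of 1.17 ± 0.295 and an edgeR adjusted p of 0.0158. Pcdhb11, also a beta gene, had 0.151 to 1.23 CPM (median 0.278) and 0.320 to 7.96 CPM (median 1.31), with 2.36 ± 0.740 and an edgeR adjusted p of 0.0442. Each of them was higher in the metastases of 6 of 6 sets on average. Without sets 4 and 6, the edgeR adjusted p was 0.225 for Pcdhga2, 0.0841 for Pcdhb7 and 0.111 for Pcdhb11. With the metastases of each set summed, none of the 5 was called, with 7 members at an unadjusted p under 0.05, and 360 of 17623 genes were called.

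**Figure D3:**
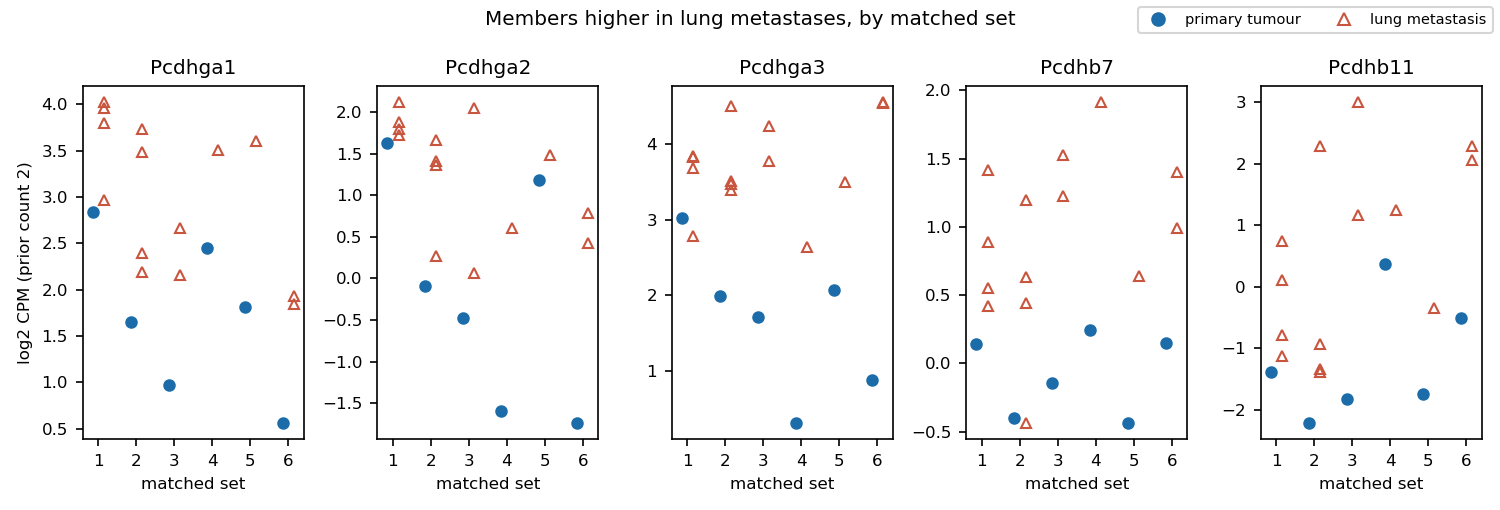
Level (log2 CPM, prior count 2) of Pcdhga1, Pcdhga2, Pcdhga3, Pcdhb7 and Pcdhb11 by matched set, filled circles for primary tumours and open triangles for lung metastases. Pcdhga3 in metastasis 1-1 and Pcdhb7 in metastasis 2-3 are the only triangles at or below the circle of their set.

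Lung and muscle RNA differed between the groups too: 18 of 20 lung epithelium markers were higher in metastases and 11 of 18 skeletal muscle markers were lower. The lung markers summed to 10.8 to 563 CPM in primary tumours and to 656 to 15700 CPM in metastases, and the muscle markers to 7.43 to 30200 CPM and 51.9 to 11800 CPM in turn. Of 14 fibroblast markers 5 were lower, of 14 leucocyte markers 1 was higher and 2 lower, of 15 Schwann cell and neuron markers tested 1 was higher and 1 lower, and of 12 endothelial markers 0 were called. The libraries with the most lung RNA, metastases 1-1 and 5-x at 15700 and 13700 CPM, had 6.86 and 11.3 CPM of Pcdhga3, and metastases 6-1 and 6-2, with 1750 and 1810 CPM of lung markers, had 23.5 and 23.2 CPM of it. Pcdhga1 had 12.1, 11.1 and 13.2 CPM in metastases 5-x, 2-1 and 2-2, whose lung markers summed to 13700, 5190 and 6090 CPM, and 3.53 to 5.18 CPM in metastases 6-1, 6-2, 2-3 and 2-4, whose lung markers summed to 656 to 1810 CPM. Other metastases departed from this order. Metastasis 1-2 had the highest Pcdhga1, 16.2 CPM, with 1970 CPM of lung markers. In log2 CPM, Pcdhga1 was 3.50 in metastasis 4-1 and 2.97 in metastasis 1-1, beside 3.61 in metastasis 5-x. Lung markers summed to 1730 CPM in metastasis 4-1 and to 15700 CPM in metastasis 1-1. In log2 CPM, Pcdhga1 was 2.97 to 4.02 in the metastases of set 1 and in metastases 2-1, 2-2, 4-1 and 5-x. Their leucocyte markers summed to 1580 to 4200 CPM. In metastases 2-3, 2-4, 3-1, 3-2, 6-1 and 6-2, with leucocyte sums of 258 to 366 CPM, it was 1.85 to 2.67. Pcdhga3 went the other way with overlap, 2.63 to 3.85 in the former and 3.51 to 4.56 in the latter. The part of lung, muscle and leucocyte RNA in the fold changes was not tested.

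Within the beta cluster, summed levels varied more between libraries at the 3′ end. Pcdhb14 to Pcdhb22, the 9 genes of its 3′ end, summed to between 19.7 and 256 CPM, a 13-fold range, while Pcdhb1 to Pcdhb13 summed to between 7.32 and 29.1 CPM, a 3.97-fold range. By single gene the stretches overlapped. The SD of log2 CPM over the 20 libraries ran from 1.08 to 2.12 in Pcdhb14 to Pcdhb22. In Pcdhb1 to Pcdhb13 it ran from 0.554 to 1.58, the highest being Pcdhb11. This split was chosen after the values were seen. The 8 highest libraries for Pcdhb14 to Pcdhb22 were metastasis 3-2 (256 CPM), Primary 4 (250.0 CPM), metastases 2-3 (231), 3-1 (221), 2-4 (178), 6-1 (175) and 6-2 (168), and Primary 6 (98.1). The other 12 had 19.7 to 69.4 CPM. Metastases of set 2 lay on both sides, with 22.5 and 19.7 CPM in 2-1 and 2-2.

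Members of that stretch followed each other to differing degrees. Over its 36 pairs the median Pearson r across the 20 libraries was 0.865, from 0.484 for Pcdhb15 with Pcdhb17 to 0.990. Pcdhb15 had the lowest median r with the other 8, 0.638: it had 1.02, 0.890 and 0.860 CPM in metastases 3-2, 6-1 and 6-2, below the 1.68 and 2.38 CPM of Primary 1 and Primary 5. Pcdhb16 had 13.2 and 13.1 CPM in metastases 6-1 and 6-2, below 15.4 CPM in metastasis 4-1. Pcdhb17, Pcdhb19 and Pcdhb20 each had their 8 highest libraries among the same 8. Pcdhb18 and Pcdhb19 had an r of 0.990, and Pcdhb19 and Pcdhb20 0.968. Over beta neighbours the median r was 0.663, over all beta pairs 0.296, over gamma neighbours 0.635 and over beta with gamma 0.063; these are descriptions over 20 libraries that share sets, depth and tissue mix. Pcdhb16 held the most beta counts in 10 libraries, Pcdhb17 in 5 and Pcdhb22 in 5. The share of Pcdhb22 ran from 4.30% in metastasis 1-3 (exact binomial 95% interval 3.08 to 5.84) to 35.7% in metastasis 6-1 (34.5 to 36.9). Within the 8 highest libraries the leading gene was Pcdhb16 in 4 (metastases 2-3 and 3-1, Primary 4 and Primary 6) and Pcdhb22 in 4 (metastases 2-4, 3-2, 6-1 and 6-2).

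The same 8 libraries had the lowest sums of the 14 leucocyte markers, 7.22 to 366 CPM against 1580 to 4200 CPM in the other 12. For endothelial markers, 7 of the 8 libraries were among the 8 lowest, with sums of 15.3 to 303 CPM. The Pearson r of log2 sums over the 20 libraries was -0.782 for leucocyte markers with Pcdhb14 to Pcdhb22 and -0.053 with Pcdhb1 to Pcdhb13. With Pcdhb14 to Pcdhb22 it was -0.666 for fibroblast, -0.583 for Schwann cell and neuron, -0.579 for endothelial, -0.375 for lung epithelium and 0.067 for muscle markers, and fibroblast markers had -0.723 with Pcdhb1 to Pcdhb13. The fibroblast markers had 6 of their 8 lowest libraries among the same 8, and the Schwann cell and neuron markers 5. Markers with 0 counts in some of the 8 libraries included Cd3e, Cd8a, Nkg7, Cd79a and S100a8, each in 1 or 2 of them. Without Primary 4 and Primary 6, the 6 metastases left of the 8 still had the lowest leucocyte sums, 258 to 366 CPM. The part of RNA from these other cells in the levels was not tested.

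**Figure D4:**
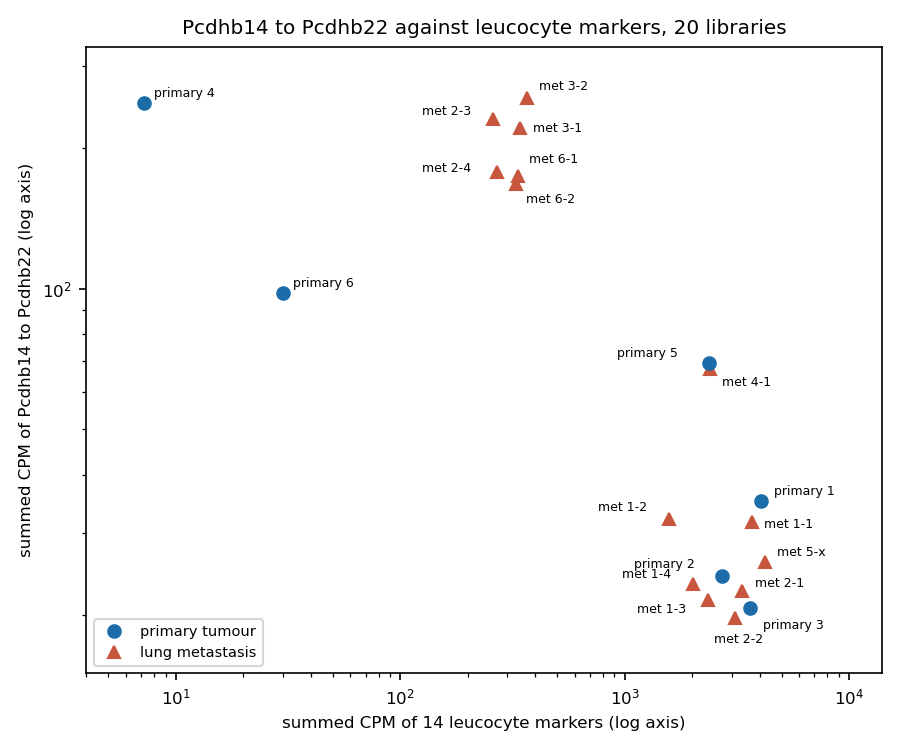
Summed CPM of Pcdhb14 to Pcdhb22 (vertical, log axis) against the summed CPM of 14 leucocyte markers (horizontal, log axis) in the 20 libraries, circles for primary tumours and triangles for lung metastases ("met"). The 8 libraries with leucocyte sums of 7.22 to 366 CPM are the 8 with beta sums of 98.1 to 256 CPM.

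Within gamma A and B, the leading gene changed between libraries. Pcdhgb6 led in 8 libraries, all 4 metastases of set 1 and metastases 2-1, 2-2, 4-1 and 5-x, and reached 30.5 CPM in metastasis 1-2 while it had 2.77 CPM in metastasis 2-4. Pcdhga10 led in 6, the primary tumours 1, 2, 3 and 5 and both metastases of set 6, with up to 38.9 CPM in metastasis 6-2 and 0.214 CPM in Primary 4. Pcdhgb4 led in metastases 2-3, 2-4, 3-1 and 3-2 at 27.99 to 39.5 CPM. Pcdhga1 led in Primary 4 at 5.40 CPM and Pcdhgb8 in Primary 6 at 14.6 CPM. The leucocyte markers summed to 1580 to 4200 CPM in the metastases led by Pcdhgb6. They summed to 258 to 366 CPM in the metastases led by Pcdhgb4 or Pcdhga10, and to 2370 to 4050 CPM in the primary tumours led by Pcdhga10. The part of tissue mix in the leading gene was not tested.

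Sets were compared among the 12 metastases of sets 1, 2, 3 and 6. Only Pcdhgb5 was called of 43 members (edgeR quasi-likelihood test of the 3 set terms, Benjamini-Hochberg adjusted p of 0.0456), beside 0.321% of all 19919 genes. Its mean was 6.50 and 5.76 CPM in sets 1 and 2 and 21.0 and 17.5 CPM in sets 3 and 6, so that sets 3 and 6 lay above the others with no overlap of their libraries. The leucocyte markers summed to 327 to 366 CPM in the metastases of sets 3 and 6, to 1580 to 3680 CPM in set 1, and to 258 and 269 CPM in metastases 2-3 and 2-4, where Pcdhgb5 had 6.89 and 5.47 CPM; their part was not tested. The call was lost in 8 of 16 alternatives. At an unadjusted p under 0.05 there were 17 members, against 29.5% of all genes, and DESeq2 called 16 members among 4890 genes.

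Whether the difference from the primary tumour varied between sets was tested over the 16 libraries of the same sets. The interaction was called for 6 of 43 members, beside 1.46% of all 18898 genes (edgeR quasi-likelihood test, Benjamini-Hochberg adjusted p of 0.036 for Pcdhga9, 0.0393 for Pcdhga8, 0.0419 for Pcdhgb5, 0.0425 for Pcdhgb7, 0.0473 for Pcdhga12 and 0.049 for Pcdhga11). For Pcdhga9 the primary tumours of sets 1, 2, 3 and 6 had 3.77, 7.25, 3.45 and 1.14 CPM. Its metastases had 4.02 to 6.21, 3.82 to 4.42, 11.6 to 14.6 and 12.02 to 12.22 CPM in turn, higher than the primary tumour in sets 1, 3 and 6 and lower in set 2. Without set 6, whose primary tumour stood apart, 0 members and 0 of all genes were called, with 6 members at an unadjusted p under 0.05. A single primary tumour stands for each set, so its own spread is not measured.

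Library profiles of the 43 members were compared by the Pearson r of centred log2 CPM. Each gene was centred on its mean over the 20 libraries. A difference between tumour types therefore lowers r between any metastasis and any primary tumour. A metastasis and its own primary tumour had a mean r of 0.029 (SD 0.357, 14 pairs), and a metastasis and another primary tumour -0.068 (70 pairs), a difference smaller than the spread among pairs. The low match was not particular to the members: over the other 18408 genes tested the means were -0.063 (SD 0.190) and -0.196 (SD 0.195). The nearest primary tumour was the metastasis's own in 3 of 14. Metastases of the same set had a mean r of 0.313 (SD 0.659, 14 pairs) and metastases of different sets -0.082 (SD 0.594, 77 pairs). The highest pairs were within sets: metastasis 1-3 with 1-4 (0.952) and 6-1 with 6-2 (0.945). Other high pairs crossed sets: metastasis 2-2 with 1-3 (0.940), 2-1 with 1-4 (0.937), 5-x with 2-2 (0.907) and 3-2 with 6-2 (0.805). Primary 2 and Primary 3 had 0.874. For the other 18408 genes tested, these named pairs had r of 0.786, 0.935, 0.736, 0.590, 0.832, 0.277 and 0.903 in turn.

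**Figure D5:**
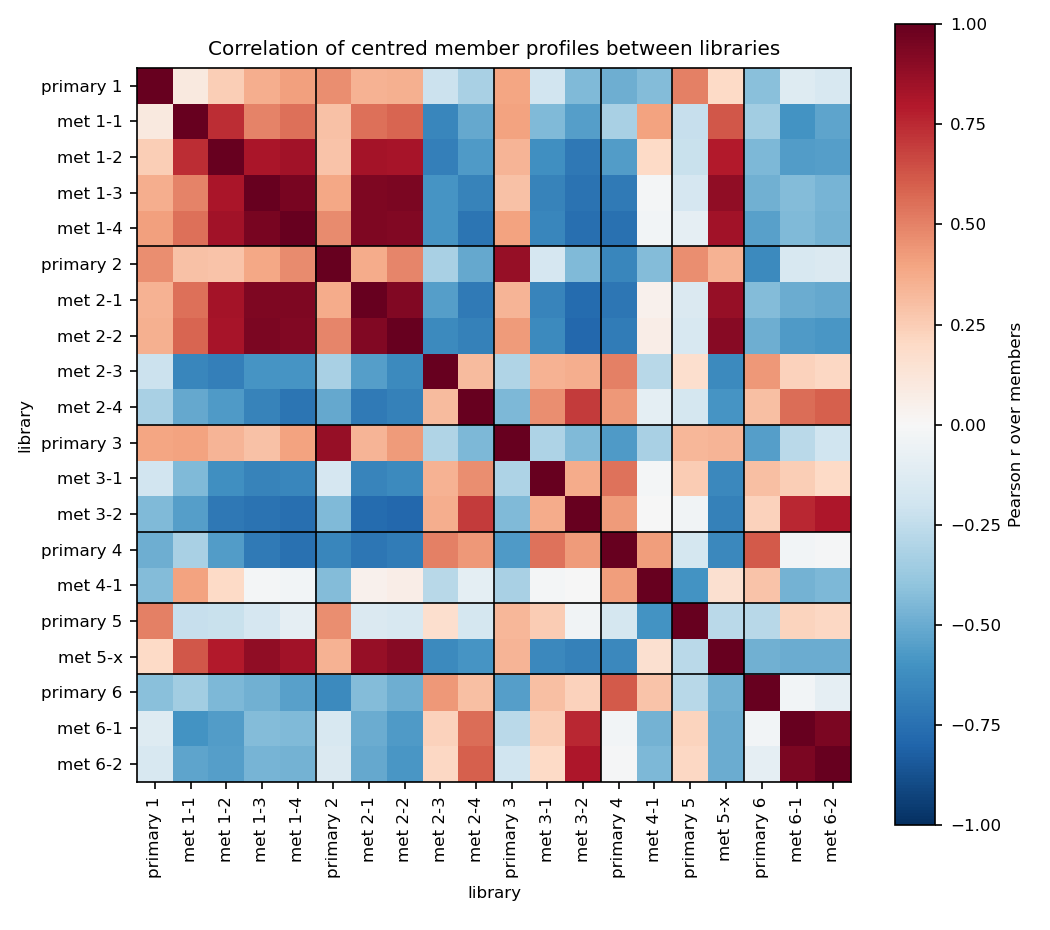
Pearson r of centred log2 CPM over the 43 tested members between each pair of the 20 libraries, with black lines between matched sets ("met" for lung metastasis). The metastases of set 1, metastases 2-1 and 2-2 and metastasis 5-x form a red block apart from metastases 2-3, 2-4, 3-1, 3-2, 6-1 and 6-2.

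Genes that act on the clusters were mostly not called. Of 28 regulators 1 was lower and 0 were higher in metastases, with a median log2 fold change of -0.14. Over all genes tested, 6.44% were lower and 7.34% higher. The lower gene was Dnmt1, the maintenance DNA methyltransferase, at -0.56 (edgeR adjusted p 0.0266). The loop-anchoring protein gene Ctcf had -0.12 (edgeR adjusted p 0.682), the cohesin subunit gene Rad21 0.55 (0.0924) and Smchd1, a chromatin protein that acts on these clusters, -0.53 (0.0641). The de novo methyltransferase genes Dnmt3a and Dnmt3b had -0.43 and -0.07, and the histone methyltransferase gene Setdb1 -0.28, with edgeR adjusted p of 0.198, 0.893 and 0.189. Smchd1 was highest in Primary 4, at 649 CPM against 144 to 254 CPM in the other primary tumours. It was not alone: the 28 regulators summed to 12100 CPM there against 3870 to 6350 CPM in the other primary tumours. Ctcf and Rad21 were also highest in Primary 4 among the primary tumours, at 176 and 734 CPM. Dnmt1, Dnmt3a and Setdb1 were lowest there, at 84.2, 28.7 and 84.2 CPM.

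Of 21 genes for processing and intracellular partners, 1 was higher and 2 were lower. Over all 18452 genes tested, 7.34% were higher and 6.44% lower, which stands beside each list below. The kinase gene Ptk2, whose product binds the cytoplasmic tail, had 0.71 (edgeR adjusted p 0.0272), the sheddase gene Adam17 -0.73 (0.00924) and the kinase gene Fyn -0.73 (0.00146). Of 21 other protocadherins and large cadherins 5 were higher and 1 lower, among them Pcdh11x (3.33, edgeR adjusted p 0.00778), Celsr1 (3.36, 0.0146) and Pcdh8 (5.98, 0.0244). Pcdh8 had 0 to 0.618 CPM in the primary tumours and 18.4 to 39.9 CPM in metastases 2-3, 2-4, 3-1, 3-2, 6-1 and 6-2, with 0.237 to 1.14 CPM in the other 8. Those 6 are the metastases among the 8 libraries with high Pcdhb14 to Pcdhb22. Of 11 classical cadherins tested 5 were higher and 0 lower. They included Cdh13 at 1.85 (edgeR adjusted p 0.000384), the epithelial cadherin gene Cdh1 at 3.65 (0.00323) and Cdh6 at 5.19 (0.014). Cdh1 is also among the lung epithelium markers. Metastases 1-1 and 5-x, with the most lung RNA, had the highest Cdh1, 197 and 112 CPM, and Celsr1, 37.3 and 28.5 CPM. Cdh13 and Cdh6 were highest in metastases 1-3 and 2-3, at 480 and 29.6 CPM. The part of lung RNA in these changes was not tested. Of the 14 genes beside the clusters 0 were called in either direction, with a median of 0.26. Those of smallest p were Diaph1 at 0.52, Fchsd1 at 0.71 and Rell2 at 1.02 (edgeR adjusted p 0.0658, 0.121 and 0.151), and Taf7, which lies between the beta and gamma clusters, had -0.28 (edgeR adjusted p 0.528).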

How the data were processed

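Total RNA of 20 tumour tissues was sequenced, and the authors deposited raw counts of reads for each gene, as whole numbers without normalization. The submitters' processing notes name Trimmomatic 0.36, STAR (version string 5.5.4b), HTSeq and the mm10 build, with the annotation release, strand setting and treatment of ambiguous reads not given in the sources used here. Identifiers were matched to symbols and mm10 coordinates in a GENCODE annotation (51633 with a symbol, 47648 in the same version).

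edgeR 4.0.16 in R 4.3.3 was used with TMM factors, filterByExpr (minimum count 10), a robust quasi-likelihood test and Benjamini-Hochberg adjustment over all genes tested, threshold 0.05. Metastases were compared with primary tumours with the matched set as a block (18452 genes), the 12 metastases of sets 1, 2, 3 and 6 were compared between sets (19919 genes), and the interaction of tumour type with set was tested over 16 libraries (18898 genes). The pairing comes from the titles, and Xist and Y-linked RNA put that of set 4 in doubt. Profiles of metastases and their own primary tumours had a mean r of 0.029 over the members. With other primary tumours the mean was -0.068, and the centring can lower both. The low-count filter was set by tumour type after a first run with the whole design had been seen; that setting is among the alternatives. DESeq2 1.42.0 was an alternative. The closest libraries, such as metastases 6-1 and 6-2, differed beyond sampling noise (chi-square 29.3 per degree of freedom over 17484 genes), so each was kept.

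Members and gene lists were chosen with earlier results of these data known. Members named in the text are the 3 highest of each name group, the members of smallest p past a threshold, the leading member of a cluster in a library, and Pcdhac1 and Pcdhac2; Pcdhgb7, Pcdhga8, Pcdhga9, Pcdhga11, Pcdhga12 and the beta neighbours were added after their values were seen. From lists, Ctcf, Rad21, Smchd1, Dnmt3a, Dnmt3b, Setdb1, Taf7 and the 3 tested genes of smallest p in each list are named by the rule, except that cell type marker lists are given as counts and sums; markers at 0 counts were named after their values were seen. On counts simulated from these libraries, the metastasis comparison recovered 2%, 16%, 50% and 80% of genes changed 1.5-, 2-, 4- and 8-fold (18375 genes), and the comparison between sets recovered 0%, 2%, 0% and 34% (19728 genes).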

Additional observations from a re-analysis of the deposited data

Results flagged for a closer look

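Named members and group sums were checked for a library far from the rest among the 6 primary tumours and among the 4 metastases each of sets 1 and 2. Of 63 such checks, 6 had one. Chance gives about 1 in 20 for a single check. The checks reuse the same libraries and the sums contain the members, so they are not independent and their number is not set against that rate. In log2 CPM, Pcdhga3 had 2.79 in metastasis 1-1 against 3.69 to 3.85 in the other metastases of set 1, and 4.50 in metastasis 2-4 against 3.39 to 3.51 in the others of set 2. Pcdhb11 had 2.29 in metastasis 2-4 against -1.38 to -0.92, and Pcdhgb5 had 2.80 in metastasis 2-3 against 2.41 to 2.47. Pcdhgb8 had -2.15 in Primary 4 against 2.33 to 3.87 in the other primary tumours, and the summed CPM of the Pcdhb genes there was 259 against 29.5 to 108.

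The difference between metastases and primary tumour varied between sets for Pcdhga9 (edgeR adjusted p 0.036), Pcdhga8 (0.0393), Pcdhgb5 (0.0419), Pcdhgb7 (0.0425), Pcdhga12 (0.0473) and Pcdhga11 (0.049); without set 6 none of the 6 was called.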

How the results depend on the processing

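Of the 43 members, 5 were called higher in metastases with the matched set as a block. Without the block 3 were called, without the filter on low counts 2, without sets 4 and 6 2, with the metastases of each set summed 0, and with each set left out in turn 2 to 4. Over all genes these settings called 2484, 2173, 1850, 360 and 999 to 3052 in turn, against 2543 in the main fit. RLE scaling gave 5, DESeq2 6 and the filter taken from the whole design, which was added after seeing the data, 5; no setting called a member lower. Pcdhga3 and Pcdhga1 were each called in 12 of 13 alternatives, Pcdhb7 in 8, Pcdhga2 in 5 and Pcdhb11 in 4. Fold changes that turned direction were never past the threshold: without sets 4 and 6 they were 0.50 for Pcdhb16, -0.79 for Pcdhga10, -0.16 for Pcdhgc5, -0.10 for Pcdhgc4 and -0.04 for Pcdhgb5, and with a set left out they ran from -0.61 to 0.11 for Pcdhb16, -0.50 to 1.64 for Pcdhb22, -0.35 to 0.59 for Pcdhga10, -0.03 to 0.45 for Pcdhgc5 and -0.29 to 0.56 for Pcdhac2. Between sets, 1 of 43 members and 64 of 19919 genes were called. RLE scaling gave 2 members and 77 genes, and DESeq2 16 members and 4890 genes. All 20 libraries with tumour type gave 3 of 43 members and 6007 of 18452 genes. Each metastasis left out in turn gave 0 to 6 members. Without metastasis 3-1 there were 6 of 44 members and 5602 of 21028 genes. Without metastasis 2-4 there were 6 of 43 members and 1186 of 19713 genes. Without metastasis 1-2, 1-3, 1-4, 2-1, 2-2, 6-1 or 6-2 no gene at all was called. For the interaction, 6 of 43 members and 276 of 18898 genes were called. The filter taken from the whole design gave 4 of 45 members and 224 of 21990 genes. DESeq2 gave 13 of 43 members and 2728 of 19532 genes, and leaving out set 6 gave 0 and 0. These settings were added after seeing the data. The difference in profile correlation between own and other primary tumours, 0.097, was 0.098 with a prior count of 0.5, 0.084 with all members and -0.019 to 0.225 with a set left out. The cause of these shifts was not tested. Depth limits the alpha genes, with at most 12 counts. In simulated counts, 4-fold changes placed in set 6 alone were not recovered between sets, and other patterns were not simulated.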
